A study of Oncorhynchus mykiss with 6 samples.

Results

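The miR-10, miR-99, miR-100 and miR-125 family was represented by 48 of the 1389 small RNA sequences in the authors' table for rainbow trout liver. Its members were chosen by name alone, as every sequence whose name carries one of these 4 miRNA numbers, whatever its letter, arm or added bases. Of the 48 sequences, 18 were listed as known miRNAs and 30 as predicted forms. Together they held 2729444 counts, between 252363 and 950754 in a library. The libraries came from the livers of wild type juvenile fish of the strain labelled Walbaum, 3 socially subordinate (SS) and 3 socially dominant (SD), after 4 d of interaction in pairs, with 1 library per fish. SS fish are named here 4A, 6A and 1B and SD fish 4B, 6B and 21A, after their labels. According to the study's methods, dominant fish took nearly all of the food, so SS fish were in effect fasted, and circulating cortisol was higher in SS fish. Social rank, feeding and cortisol therefore differ between the groups together and cannot be told apart.

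miRNAs guide Argonaute proteins to messenger RNAs mainly through their seed, the bases 2 to 8 from the 5′ end, and members with the same seed can be expected to pair with overlapping sets of targets. The genes of miR-10 lie inside the Hox clusters of vertebrates, which pattern the body axis, while miR-99 or miR-100, let-7 and miR-125 share short clusters elsewhere in the genome. miR-125 is the vertebrate counterpart of lin-4, the regulator of developmental timing in Caenorhabditis elegans, and in mammalian cells miR-99 and miR-100 repress the kinase mTOR. Each hairpin can give a mature miRNA from its 5′ side (5p) and another from its 3′ side (3p).

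The 7 sequences below are shown because nearly all counts of the family fell on them and on longer forms of them. They are the 5p sequences of each miRNA as the deposited table gives them, 5′ to 3′ in DNA letters, with the seed in capitals. The prefix of a name is the species of the matched miRNA (zebrafish for dre, channel catfish for ipu, medaka for ola, pufferfish for fru and Atlantic salmon for ssa), and R or L followed by a number gives bases gained or lost at the right or left end.
dre-miR-100-5p: aACCCGTAgatccgaacttgtg
dre-miR-99_R-1: aACCCGTAgatccgatcttgt
dre-miR-10c-5p: tACCCTGTagatccggatttgt
dre-miR-10b-5p_R-1: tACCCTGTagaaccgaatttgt
ssa-miR-10d-5p: cACCCTGTagaaccgaatttgt
fru-miR-125b_R-1: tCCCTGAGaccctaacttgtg
ipu-miR-125a: tCCCTGAGacccttaacctgtg

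Counting from 1 at the 5′ end, miR-99 differed from miR-100 by T16A alone, outside the seed. miR-10c differed from miR-10b by T12A and G16A, and miR-10b from miR-10d by T1C, so the 3 miR-10 sequences also had 1 seed. The seed ACCCGTA of miR-99 and miR-100 was carried by 8 sequences with 94.2% of the family's counts. The seed CCCTGAG of miR-125 was carried by 6 sequences with 3.27%, and the seed ACCCTGT of miR-10 by 4 sequences with 2.46%. Sequences that began upstream or downstream of the usual 5′ end, which shifts the seed, numbered 9 and held 0.0142% of the 5p counts.

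Values in the table are expected counts, since a read with more than 1 matching sequence is divided among the matches, and 32 of the 48 members had a fractional count. Division of reads among near-identical forms is therefore uncertain. miR-99 and miR-100 could share a read that ends before base 16, in which they differ. The authors' search allowed 1 mismatch in the first 16 nt, so a longer read of either could also match the other. How many reads this concerned was not tested. Levels are given as normalized reads, the counts divided by the authors' size parameter for each library. Each read was counted once whatever its length, and the tested members are all 21 to 25 nt long, so their levels were not divided by length. Capture of each sequence during library preparation was not corrected for. Total counts lay between 1183289 and 3382970, the highest in SD fish 21A. miR-122, the defining miRNA of hepatocytes, took 35.7% to 40.4% of the counts of every library, so the defining marker of the labelled tissue was present throughout.

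miR-100 made up most of the family. Its 7 sequences held 92.2% of the family's counts, against 3.32% for the 20 sequences of miR-125, 2.47% for the 12 of miR-10 and 1.97% for the 9 of miR-99. The 5p arm took 99.9% of the counts of the family, with a range of 99.90% to 99.94% over the 6 livers. Counts were concentrated within each miRNA as well. dre-miR-100-5p held 93.9% to 96.1% of the 5p counts of miR-100, miR-10c 95.7% to 98.4% of those of miR-10, and miR-125b 92.3% to 95.9% of those of miR-125.

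**Figure D1:**
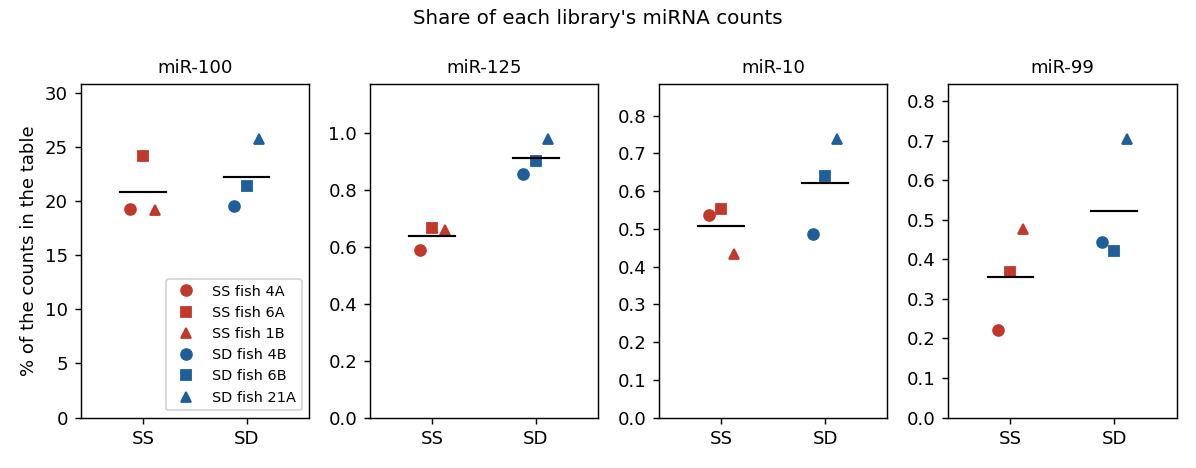
Percent of the counts in each library's table held by miR-100, miR-125, miR-10 and miR-99, on a linear axis from 0 in each panel. Each point is 1 fish and each bar is the mean of 3 fish. The SS points of miR-125 (0.588% to 0.667%) lie below its SD points (0.857% to 0.978%), and the groups overlap for the other 3 miRNAs.

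The whole family took 20.6%, 25.7% and 20.7% of the counts in SS fish 4A, 6A and 1B, against 21.3%, 23.4% and 28.1% in SD fish 4B, 6B and 21A. The groups overlapped, at 22.3% ± 2.94 (s.d., n = 3) in SS and 24.3% ± 3.48 (s.d., n = 3) in SD fish (exact two-sided permutation test, p = 0.5). The difference SS minus SD was -1.93 percentage points, and -0.008 without SD fish 21A. With 3 fish against 3 this test cannot give a p below 0.1. miR-100 accounted for 19.2%, 24.1% and 19.1% of the counts in the SS and 19.5%, 21.4% and 25.7% in the SD fish, which overlapped (exact permutation test, p = 0.5). The SD mean was the higher of the 2 only through fish 21A, since without it the difference SS minus SD changed from -1.37 to 0.37 percentage points. In a sample of whole liver, fewer cells of a type and less RNA per cell cannot be told apart.

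miR-125 was the miRNA of the family whose groups did not overlap. It held 0.588%, 0.667% and 0.658% of the counts in SS fish 4A, 6A and 1B, against 0.857%, 0.903% and 0.978% in SD fish 4B, 6B and 21A. All SS fish lay below all SD fish, with a difference of means of -0.275 percentage points. The exact permutation test gave p = 0.1, the smallest possible, and 0.5 after Benjamini-Hochberg adjustment over the 5 shares compared. The 95% Wilson intervals, which cover counting error only, were at most 0.033 percentage points wide for miR-125. In the whole table, 16 of 210 sums of sequences by miRNA number and arm (7.62%) had every SS library below every SD library on this scale, and miR-125-5p was 1 of them. In either direction, 31 of the 210 sums (14.8%) had groups that did not overlap.

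For miR-10 the shares ran from 0.432% to 0.553% in SS and from 0.486% to 0.737% in SD fish and overlapped (exact permutation test, p = 0.3). miR-99 varied most among fish. It held 0.222%, 0.367% and 0.477% of the counts in SS fish 4A, 6A and 1B, against 0.443%, 0.422% and 0.703% in SD fish 4B, 6B and 21A. The lowest value was in SS fish 4A and the highest in SD fish 21A, and SS fish 1B stood above SD fish 4B and 6B (exact permutation test, p = 0.3).

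Of the 48 members, 14 passed the filter on low counts and were compared between SS and SD fish with edgeR's quasi-likelihood test, 11 of them 5p and 3 of them 3p sequences. None passed an adjusted p of 0.05 in edgeR, where 2 of all 338 sequences tested (0.592%) did, and none passed in DESeq2, where 7 of 338 (2.07%) did. At an unadjusted p under 0.05, edgeR gave 1 member, which was lower in SS fish. Over all sequences edgeR gave 37 of 338 in either direction (10.9%), and 13 of 338 lower in SS fish (3.85%). DESeq2 also gave 1 member, against 36 of 338 sequences in either direction (10.7%). The log2 fold change, SS over SD, was fitted below 0 for 12 of the 14 members, against 170 of 338 sequences (50.3%). The members include plain and longer forms of the same miRNA and are not independent. When each fish was left out, this count ran from 9 of 15 tested members (without SS fish 1B) to 13 of 14 (without SS fish 6A). The log2 fold change was below 0 for only 7 of the 14 when the number in the fish labels was used as a replicate block. Fish 1B and 21A share their number with no other fish, so with the block the contrast rests on fish 4A, 4B, 6A and 6B. Without the block, the median log2 fold change was -0.28 for the 14 members and -0.02 for the 338 sequences. Standard errors of the members ran from 0.21 to 0.73.

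**Figure D2:**
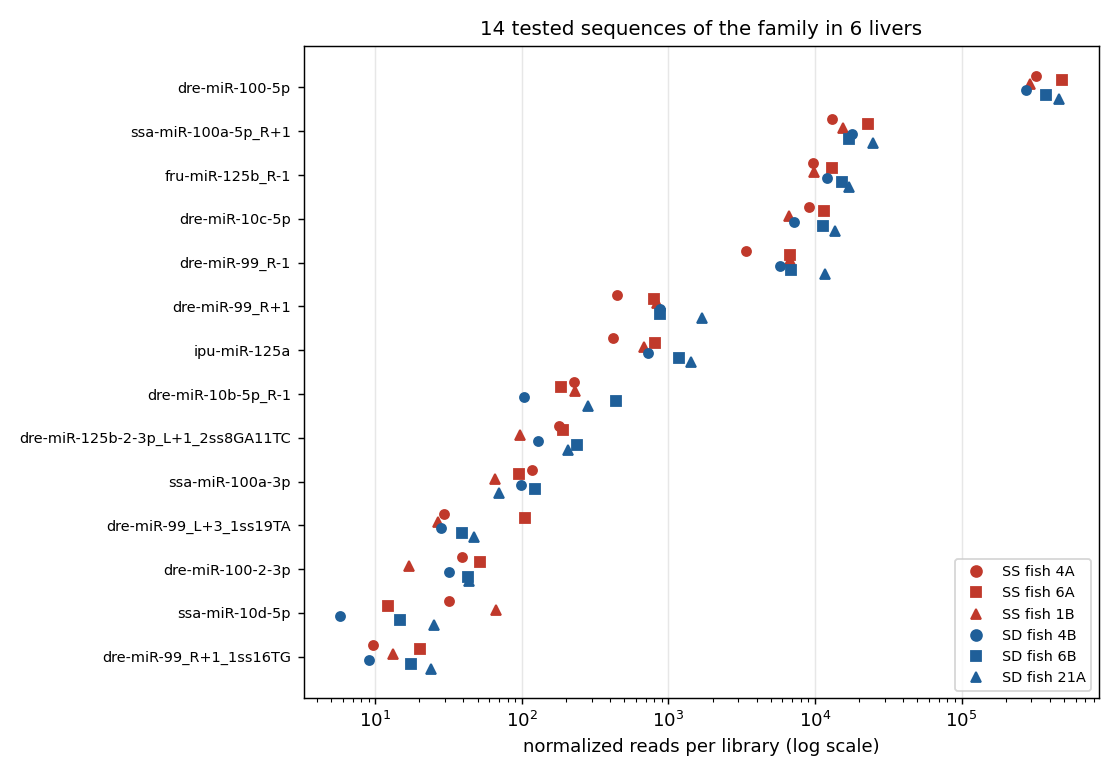
Normalized reads of the 14 tested members in each of the 6 livers, on a logarithmic axis, ordered by their total counts. Red points are SS fish and blue points SD fish. Levels run from 487337 for dre-miR-100-5p to 5.72 for ssa-miR-10d-5p, and SS and SD points overlap for every sequence except dre-miR-99_R+1, whose highest SS value (838) is close to its lowest SD value (871).

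dre-miR-100-5p, the most abundant member, stood at 323019, 487337 and 293171 normalized reads in SS fish 4A, 6A and 1B and at 275918, 378789 and 465049 in SD fish 4B, 6B and 21A. On this scale the highest fish was an SS and the lowest an SD fish, and the extremes were 1.77-fold apart. As a percent of the library's counts, dre-miR-100-5p was highest in SD fish 21A (24.4%) and lowest in SS fish 1B (18.2%). Its log2 fold change was -0.05 (standard error 0.24, edgeR adjusted p = 0.933). The form with 1 more base at the 3′ end, ssa-miR-100a-5p_R+1, stood at 13123, 23100 and 15453 normalized reads in the SS and 17773, 17193 and 24808 in the SD fish. These groups overlapped as well, and the log2 fold change was -0.24 (standard error 0.25, edgeR adjusted p = 0.717). The longer form came to 4.06% to 6.44% of the counts of the plain form, and the log2 ratio of the forms differed by -0.21 between SS and SD fish (exact permutation test, p = 0.4).

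miR-125b and miR-125a carry the same seed and differ in their 3′ part. fru-miR-125b_R-1 stood at 9666, 13077 and 9824 normalized reads in SS fish 4A, 6A and 1B and at 12011, 15275 and 17013 in SD fish 4B, 6B and 21A. Only SS fish 6A reached into the range of the SD fish. Its log2 fold change of -0.47 had the smallest standard error of the members, 0.21, with an unadjusted p of 0.0525 and an edgeR adjusted p of 0.449. ipu-miR-125a was less abundant, at 418, 809 and 683 normalized reads in the SS and 726, 1177 and 1418 in the SD fish. Again SS fish 6A alone overlapped the SD fish, above fish 4B. It was the member with an unadjusted p under 0.05 (log2 fold change -0.83, standard error 0.34, unadjusted p = 0.0419, edgeR adjusted p = 0.432).

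When all 5p forms of miR-125 were summed, levels were 10094, 13896 and 10514 normalized reads in the SS and 12745, 16467 and 18442 in the SD fish. The mean was 11501 ± 2085 (s.d., n = 3) in SS and 15884 ± 2893 (s.d., n = 3) in SD fish, with SS fish 6A above SD fish 4B. The log2 fold change was -0.47 (standard error 0.19, unadjusted p = 0.0436, edgeR adjusted p = 0.509). Of 210 sums by miRNA number and arm, 2 (0.952%) passed the adjusted threshold. An unadjusted p under 0.05 was reached by 19 (9.05%) in either direction, and by 3 (1.43%) with lower levels in SS fish. Summed separately, the log2 fold changes were -0.48 (standard error 0.18, edgeR adjusted p = 0.356) for miR-125b-5p and -0.83 (standard error 0.32, edgeR adjusted p = 0.377) for miR-125a-5p, where 2 of 283 sums (0.707%) passed.

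Scaling decided whether the groups of miR-125 overlapped. As a percent of the library's counts, fru-miR-125b_R-1 and ipu-miR-125a each had all SS fish below all SD fish, as did 37 of the 338 sequences (10.9%), while as normalized reads neither did, nor did the sum. Conversely, dre-miR-99_R+1 separated the groups as normalized reads, as 26 of 338 sequences did (7.69%), and overlapped as a percent of counts. This second comparison of scales was chosen after seeing the data. In either direction, 63 of 338 sequences (18.6%) separated the groups as a percent of counts and 62 (18.3%) as normalized reads.

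miR-99 had a wide spread among fish. dre-miR-99_R-1 stood at 3390, 6787 and 6808 normalized reads in SS fish 4A, 6A and 1B and at 5747, 6855 and 11637 in SD fish 4B, 6B and 21A. SS fish 4A was lowest, SD fish 21A was highest, and the other 4 fish lay between them with the groups mixed. The log2 fold change was -0.54 (standard error 0.35, edgeR adjusted p = 0.553), and it was -0.26 without SS fish 4A and -0.19 without SD fish 21A. Its longer form, dre-miR-99_R+1, stood at 448, 802 and 838 normalized reads in the SS and 874, 871 and 1691 in the SD fish. The fitted log2 fold change was -0.74 (standard error 0.36, unadjusted p = 0.0742, edgeR adjusted p = 0.449). The longer form took 10.4% to 13.1% of the 5p counts of miR-99 in every fish.

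The miR-10 sequences differed widely in level, and their fitted changes had no shared sign. dre-miR-10c-5p stood at 9093, 11453 and 6666 normalized reads in SS fish 4A, 6A and 1B and at 7179, 11375 and 13740 in SD fish 4B, 6B and 21A, and the groups overlapped (log2 fold change -0.28, standard error 0.29, edgeR adjusted p = 0.717). dre-miR-10b-5p_R-1 stood at 225, 184 and 229 in the SS and 103, 442 and 283 in the SD fish. The SS values lay inside the SD range (log2 fold change -0.40, standard error 0.48, edgeR adjusted p = 0.737). ssa-miR-10d-5p was rare, at 32.05, 12.2 and 67.0 normalized reads in the SS and 5.72, 14.7 and 25.1 in the SD fish, which rests on 4.5 to 70.5 counts per library. It had the highest log2 fold change of the tested members, 1.26, with the largest standard error, 0.73, and an edgeR adjusted p of 0.514. The value was 0.51 without SS fish 1B, 0.83 without SD fish 4B and 1.87 without SD fish 21A.

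**Figure D3:**
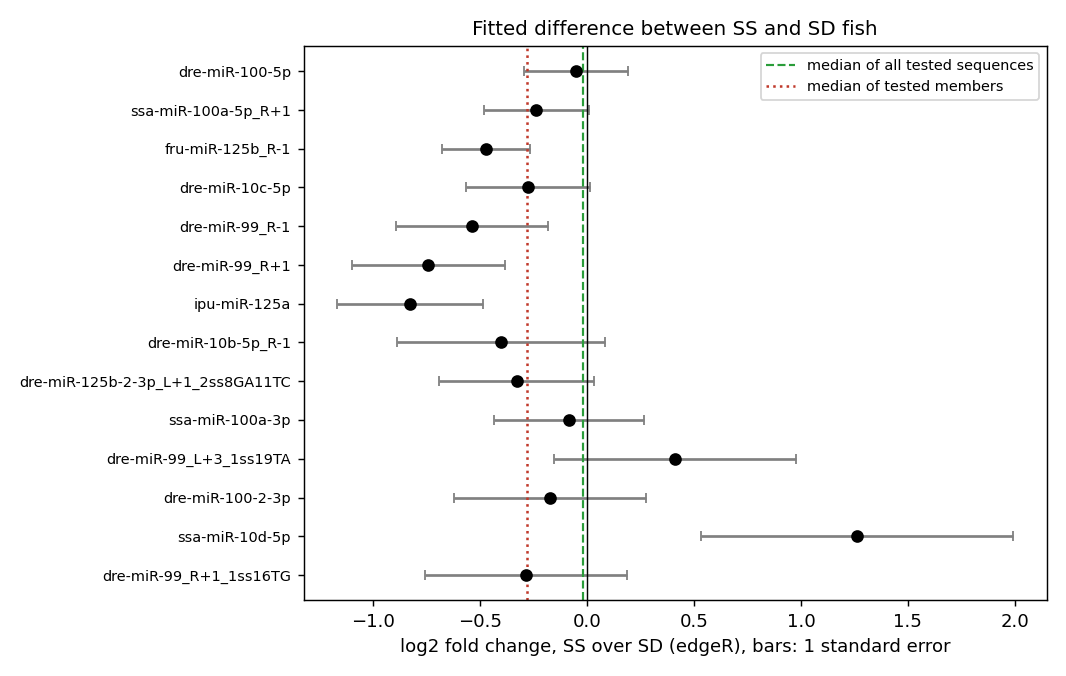
Log2 fold change, SS over SD, of each tested member from edgeR's quasi-likelihood test, with bars of 1 approximate standard error. Dashed and dotted lines mark the medians of the 338 tested sequences (-0.02) and of the 14 members (-0.28). Values run from -0.83 for ipu-miR-125a to 1.26 for ssa-miR-10d-5p, and none passed the adjusted threshold.

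The 3p arms were measured on few counts. The 3 tested 3p sequences are shown because their seeds, in capitals, differ from those of the 5p arms.
dre-miR-125b-2-3p_L+1_2ss8GA11TC: aCGGGTTAggctctcgggagct
ssa-miR-100a-3p: aCAAGCTTgattctataggtct
dre-miR-100-2-3p: cAAGCTCGtgtctataggtatg

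dre-miR-125b-2-3p_L+1_2ss8GA11TC stood at 179.6, 191 and 97.5 normalized reads in SS fish 4A, 6A and 1B and at 129, 239 and 206 in SD fish 4B, 6B and 21A. ssa-miR-100a-3p stood at 118, 95.1 and 65.6 in the SS and 99.1, 122.3 and 69.9 in the SD fish, and dre-miR-100-2-3p at 38.9, 51.9 and 17.1 in the SS and 31.8, 42.8 and 43.4 in the SD fish. SS fish 1B was lowest for all 3, and the groups overlapped for each, with log2 fold changes of -0.33, -0.09 and -0.17 and edgeR adjusted p values of 0.732, 0.920 and 0.892. Counts of the 3p arm were 0.024% to 0.047% of those of the 5p arm for miR-100 and 1.02% to 1.86% for miR-125. Neither ratio differed beyond the spread among fish (exact permutation test, p = 1 for miR-100 and p = 0.7 for miR-125).

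Names and bases disagreed for some members. A name is that of the fish miRNA to which the authors' search assigned the sequence, and 4 of the 9 sequences named miR-99 did not carry the bases of miR-99. The sequences below are shown because each either holds another member whole, with added bases, or has a base that neither miRNA has. Capitals again mark bases 2 to 8.
dre-miR-99_L+3_1ss19TA: aTTAACCCgtagatccgaacttgtg
dre-miR-99_R+4_1ss16TA: aACCCGTAgatccgaacttgtggctt
dre-miR-99_R+1_1ss16TG: aACCCGTAgatccgagcttgtga
dre-mir-99-1-p3_2ss8CT17GA: aCAAGCTTgattctataggtctct
dre-miR-10a-5p_L+1_1ss17AG: cTACCCTGtagatccggatttgt

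dre-miR-99_L+3_1ss19TA contains dre-miR-100-5p with 3 bases added at its 5′ end, which moves its seed to TTAACCC. It stood at 29.5, 104 and 26.6 normalized reads in SS fish 4A, 6A and 1B and at 28.0, 39.1 and 47.5 in SD fish 4B, 6B and 21A. SS fish 6A alone was high (log2 fold change 0.41, standard error 0.57, edgeR adjusted p = 0.768), and without it the log2 fold change was -0.47. dre-miR-99_R+4_1ss16TA, a sequence chosen after its values were seen, contains dre-miR-100-5p with 4 bases added at its 3′ end and had 1.65 counts in all. dre-miR-99_R+1_1ss16TG differs from dre-miR-99_R+1 by T16G, at the position that separates miR-99 from miR-100. It stood at 9.60, 20.2 and 13.2 normalized reads in the SS and 9.11, 17.5 and 23.9 in the SD fish, which overlapped (log2 fold change -0.29, standard error 0.47, edgeR adjusted p = 0.817). dre-mir-99-1-p3_2ss8CT17GA contains ssa-miR-100a-3p with 2 more bases and had 41 counts in all. dre-miR-10a-5p_L+1_1ss17AG contains dre-miR-10c-5p with 1 more base at its 5′ end and had 55.05 counts, the highest total of the members that were not tested.

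The other members were rare. The 34 sequences removed by the filter had totals of 0.25 to 55.05 counts over the 6 livers, 20 of them under 10, and together 0.0150% of the family's counts. Among them, ipu-mir-99a-p3_2ss16CG17TG had 45 counts, of which 24.5 were in SS fish 6A, the highest count of such a member in any library. ssa-miR-10a-3p had 25 counts, ola-miR-125a-3p_L-1R-1_1ss6TC had 18 and dre-miR-10c-3p_L+1R-1_1ss15GA had 21. Sequences named miR-125c had few counts, 4.33 for ola-mir-125c-p3_1ss8TA and 1 for ola-mir-125c-p5_1ss2GA. The first lies whole within dre-miR-125b-2-3p_L+1_2ss8GA11TC, which is 2 bases longer and had 1118 counts. The level of miR-125c can therefore not be read from these names. With no filter on low counts, edgeR compared 43 of the 48 members and none passed the adjusted threshold, while 5 had an unadjusted p under 0.05, against 82 of 1283 sequences (6.39%). Of all 48 members, 23 had a count above 0 in every library. A count of 0 allows up to 3 counts, or 1.69 to 4.32 normalized reads depending on the library.

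Ratios between members within a library do not depend on the size parameter. Summed 5p counts of miR-125 were 3.003%, 2.72% and 3.41% of those of miR-100 in SS fish 4A, 6A and 1B, against 4.34%, 4.16% and 3.76% in SD fish 4B, 6B and 21A. All SS fish lay below all SD fish, with a difference in mean log2 ratio of -0.43. The exact permutation test gave p = 0.1, and 0.525 after adjustment over the 7 ratios compared. Leaving out each fish in turn gave differences of -0.51 to -0.35. This ratio draws on the same miR-125 counts as the share above and is not separate evidence. Ratios of miRNAs outside the family were not computed, so no share over the whole table can be set beside it.

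The other 6 ratios overlapped between the groups. For miR-99 over miR-100 they were 1.15%, 1.51% and 2.49% in the SS and 2.27%, 1.97% and 2.74% in the SD fish, a log2 difference of -0.50 (exact permutation test, p = 0.3) that ran from -0.80 without SS fish 1B to -0.25 without SS fish 4A. miR-10 over miR-100 ran from 2.26% to 2.79% in SS and from 2.48% to 2.99% in SD fish (log2 difference -0.19, exact permutation test, p = 0.2). miR-125a over miR-125b was 4.32%, 6.18% and 6.95% in the SS and 6.04%, 7.70% and 8.33% in the SD fish. SS fish 4A had the lowest and SD fish 21A the highest value, and the log2 difference was -0.35 (exact permutation test, p = 0.3), or -0.15 without SS fish 4A.

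**Figure D4:**
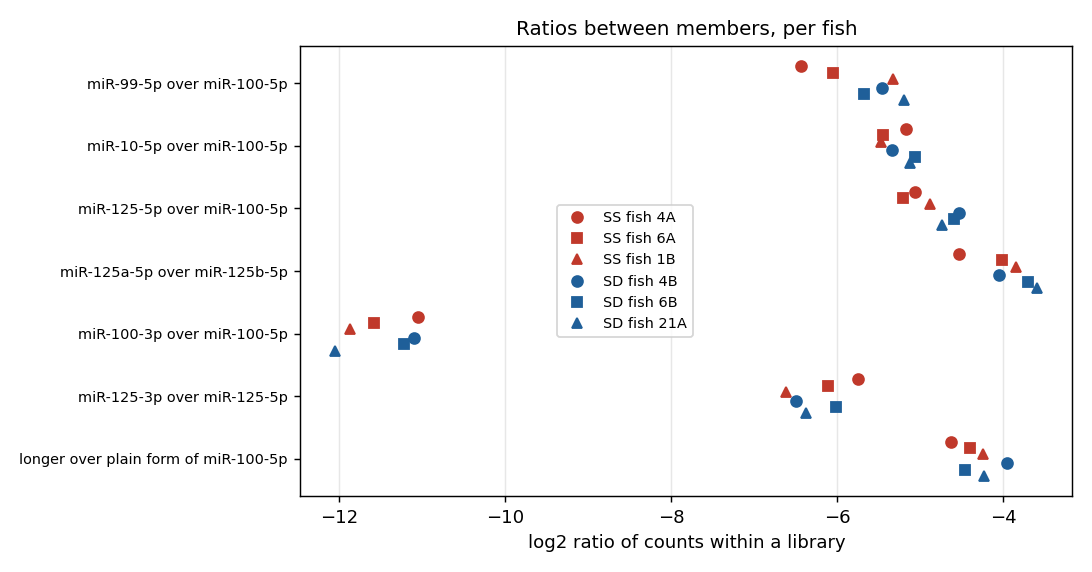
Log2 ratio of summed counts between members in each of the 6 livers, with SS fish in red and SD fish in blue. The SS points of miR-125-5p over miR-100-5p (-5.20 to -4.88) lie below its SD points (-4.73 to -4.53), and the other 6 ratios overlap.

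SD fish 21A, the deepest library, was the highest of the 6 for 7 of the 14 tested members, against 57 of the 338 sequences (16.9%). SS fish 4A and 1B were each lowest for 5 members and SD fish 4B for 4, against 15.7%, 21.6% and 16.3% of the 338 sequences. The part of depth in this order was not tested. Without fish 21A the log2 fold change was -0.37 for fru-miR-125b_R-1, -0.63 for ipu-miR-125a, -0.19 for dre-miR-99_R-1 and -0.36 for dre-miR-99_R+1. With this fish, the value was -0.54 for dre-miR-99_R-1 and -0.74 for dre-miR-99_R+1, so much of the fitted difference of miR-99 rested on it. In no comparison that left out 1 fish did a member pass the adjusted threshold.

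Across the 6 livers, the tested sequences outside the family with the profile closest to that of dre-miR-100-5p were ssa-miR-26d-5p, ssa-miR-30b-3p_L-1, dre-miR-181a-5p, ssa-miR-26a-5p and fru-miR-24-3p_R-2. Likeness was measured as the root mean square difference of log2 normalized reads centred on their mean, over 6 livers that share 1 size parameter each, and came to 0.10 to 0.18 for these 5, against a median of 0.47 over 158 candidates. dre-miR-10c-5p lay at 0.16 from dre-miR-100-5p, ssa-miR-100a-5p_R+1 at 0.21, fru-miR-125b_R-1 at 0.24, dre-miR-99_R-1 at 0.44, ipu-miR-125a at 0.46, dre-miR-10b-5p_R-1 at 0.58 and ssa-miR-10d-5p at 1.13. The other tested members lay at 0.25 (dre-miR-99_R+1_1ss16TG) to 0.50 (dre-miR-99_R+1). Of the 158 candidates, 2 lay nearer than dre-miR-10c-5p, 66 nearer than dre-miR-99_R-1 and 152 nearer than ssa-miR-10d-5p. Candidates had a mean of at least 100 normalized reads, which was not required of members, and ssa-miR-10d-5p was below it. Differences between these distances were not tested.

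Sequences named let-7 and miR-196, miRNAs with genes in the same clusters, were counted by name. No loci were placed, so every let-7 sequence was taken, whether or not its gene lies in such a cluster. Of 68 let-7 sequences, 26 were tested, with 9 fitted above and 17 below 0 (170 of all 338 sequences were below 0, 50.3%). The 26 had a median log2 fold change of -0.32. In edgeR, 5 had an unadjusted p under 0.05 (37 of all 338 sequences, 10.9%) and none passed the adjusted threshold. Summed let-7 levels overlapped, at 105331 to 131279 normalized reads in SS and 123757 to 128325 in SD fish. miR-196, which lies in Hox clusters as miR-10 does, had 1 tested sequence of 5, and its summed level was 74.7 to 274 normalized reads in SS and 6.30 to 244 in SD fish. Summed markers of hepatocytes (miR-122), stroma (miR-143, miR-145, miR-199 and miR-214), endothelium (miR-126), erythrocytes (miR-144 and miR-451) and leukocytes (miR-142, miR-150, miR-155 and miR-223) also overlapped between SS and SD fish, and of their tested sequences 2 of 5 for hepatocytes and none of the others had an unadjusted edgeR p under 0.05. Of these 5 lists, erythrocyte markers were the most variable, at 1822 to 7856 normalized reads in SS and 4950.3 to 6719 in SD fish. The highest level was in SS fish 4A. All 6 of 6 tested sequences were fitted below 0 (170 of all 338 sequences, 50.3%), and none passed the threshold. These sequences belong to miR-144 and miR-451 alone and are not independent. SS fish 6A had the lowest erythrocyte level and the highest stromal, endothelial and hepatocyte levels, 103299, 26223 and 813536 normalized reads, and was also highest for dre-miR-100-5p. The order for dre-miR-100-5p depended on the scale, and SS fish 6A had the lowest size parameter, 0.694. As a percent of counts, dre-miR-100-5p was highest in SD fish 21A (24.4%, against 23.0% in SS fish 6A). Apart from the range given above for miR-122, marker levels were not given as a percent of counts. Whether the marker orders hold on that scale was not tested. The part of cell composition in the levels of the family was not tested.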

How the data were processed

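The authors cut adapters, kept inserts of 15 to 32 nt, set apart other RNA and searched fish miRNAs of miRBase release 21 with Bowtie 1.1.1 (submitters' processing notes), allowing 1 mismatch in the first 16 nt. The deposited table holds expected counts per sequence and library. Normalized reads, a signal the authors obtained by dividing counts by a size parameter, stand beside them, with 0 written as 0.001 and set back to 0 here. A second deposited table gives counts of reads per filtering step, of which mappable reads were used. Read alignment was not repeated, no genome was used and no genome positions are given.

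Counts were rounded and compared with edgeR 4.0.16 in R 4.3.3 (filterByExpr, minimum count 10, TMM, quasi-likelihood test, Benjamini-Hochberg adjustment over all sequences, threshold 0.05). The same was done for counts summed by miRNA number and arm over the whole table. A name without an arm took that of an armed sequence sharing 12 bases. Standard errors of edgeR log2 fold changes are approximate, being the absolute log2 fold change over the square root of the test's F statistic. Shares and ratios were compared by exact permutation tests in Python 3.11.15 with scipy 1.17.1. Replicates are separate fish. Every tested member was named, and of the others the most abundant of each miRNA, letter and arm. Like sequences had a mean of at least 100 normalized reads. The edgeR step was also run on simulated counts, with changes larger than any fitted for the tested members. That run does not measure the power to call changes of the members' size. Alternatives were DESeq2 1.42.0, limma 3.58.1 on log2 normalized reads with 1 or 10 added, other size factors and filters, fractional counts, known miRNAs only, assignment by bases, other denominators, a replicate block and leaving out each library. Members and lists were chosen with earlier results of these data known.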

Additional observations from a re-analysis of the deposited data

How the results depend on the processing

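No member passed the adjusted threshold under any of 17 alternatives to the comparison of single sequences (lowest adjusted p 0.279, edgeR with a minimum count of 50), nor did a family sum under any of 12. Other size factors moved the median of all sequences by at most 0.04. The share of miR-125, SS minus SD, was -0.435 percentage points without miR-122 in the denominator and -0.184 of mappable reads, with all SS fish below all SD fish in both. The log2 fold changes of fru-miR-125b_R-1, ipu-miR-125a, the 5p sums of miR-125 and miR-99 and both main forms of miR-99 stayed below 0 throughout. That of ssa-miR-100a-5p_R+1 did so as well (-0.49 to -0.05), and that of ssa-miR-10d-5p stayed above 0 (0.51 to 1.87). Those of dre-miR-10c-5p, dre-miR-125b-2-3p_L+1_2ss8GA11TC and the sums miR-10-5p and miR-125-3p stayed below 0 whichever fish was left out. Signs of the rest depended on single fish. Leaving out each fish gave -0.29 to 0.12 for dre-miR-100-5p (-0.27 to 0.11 for the 5p sum of miR-100), -0.84 to 0.11 for dre-miR-10b-5p_R-1, -0.29 to 0.11 for ssa-miR-100a-3p, -0.47 to 0.73 for dre-miR-99_L+3_1ss19TA, -0.50 to 0.16 for dre-miR-100-2-3p, -0.62 to 0.073 for dre-miR-99_R+1_1ss16TG, -0.20 to 0.14 for the 3p sum of miR-100 and -0.86 to 0.75 for that of miR-99. The causes were not tested.

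The fish labels share the numbers 4 and 6 between groups, and the labels do not say that a number marks a pair. Deviations of same-numbered fish correlated at r = 0.13 (4A and 4B) and 0.44 (6A and 6B) across sequences, which are not independent replicates, and those of other pairs of SS and SD fish at -0.37 to 0.30 (1B and 21A). With this number as a replicate block, no member passed, and the log2 fold change turned positive for dre-miR-100-5p (0.25), dre-miR-10c-5p (0.13), dre-miR-125b-2-3p_L+1_2ss8GA11TC (0.037), dre-miR-100-2-3p (0.24), dre-miR-99_R+1_1ss16TG (0.14), and the sums miR-100-5p (0.26), miR-10-5p (0.15), miR-100-3p (0.10) and miR-125-3p (0.016). Fish 1B and 21A share their number with no other fish, so with the block the contrast rests on fish 4A, 4B, 6A and 6B. Each number left in the contrast has an SS and an SD fish. A plain contrast of the same 4 fish should therefore give nearly the same log2 fold changes as the block. That fit was not run. Over the whole table the edgeR comparison called 2 sequences. It called 0 with the block, 18 without a filter and 0 to 6 when a fish was left out, and DESeq2 called 7.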
